A study of Mus musculus with 2 samples.

Results

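The miR-99/100 and miR-125 genes of the mouse were described in the adrenal gland, an organ with an outer cortex that makes steroid hormones and an inner medulla that makes catecholamines. The 6 genes, Mir99a, Mir99b, Mir100, Mir125a, Mir125b-1 and Mir125b-2, were taken by name from the 2202 microRNA genes counted. The rule uses no measured value, but it was written with earlier results of these data known. The 2 small-RNA libraries came from female mice of strain B6CASTF1/J, a hybrid of C57BL/6J and CAST/EiJ parents, at an age of 10 days. No treatment, induced allele or second condition is named in the labels, so the 2 libraries form 1 group. They are biological replicates 1 and 2 and carry the animal numbers 3 and 4, but also share 1 donor entry. Whether the spread between them is biological or technical cannot be told apart.

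A microRNA is cut from a hairpin in a longer transcript, and bases 2 to 8 of the mature strand, the seed, guide it to target messenger RNAs. The miR-100, let-7 and miR-125 genes lie side by side in many animals, and the mouse holds 3 copies of that arrangement. miR-99/100 is known for repressing the growth kinase gene Mtor. miR-125 is the vertebrate relative of the worm microRNA lin-4 and represses Lin28a, whose protein in turn blocks let-7 maturation. In steroid-making cells miR-125a has been reported to repress the lipoprotein receptor gene Scarb1.

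The mature sequences come first because they set what the counts can hold. RefSeq (GRCm38.p6, the build named mm10 in the deposited files) gave mature sequences for all 6 genes, shown 5′ to 3′ with the seed in capitals. The 5p arm lies at the 5′ side of the hairpin and the 3p arm at the other side.
miR-99a-5p: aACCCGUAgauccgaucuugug
miR-100-5p: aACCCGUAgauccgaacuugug
miR-99b-5p: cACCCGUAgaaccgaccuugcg
miR-125b-5p (Mir125b-1 and Mir125b-2): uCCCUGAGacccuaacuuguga
miR-125a-5p: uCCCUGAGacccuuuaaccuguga

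The 3 miR-99/100 arms shared 1 seed, ACCCGUA, and the miR-125 arms another, CCCUGAG. Counting positions from 1 at the 5′ end, miR-99a-5p differed from miR-100-5p by the substitution U16A alone. It differed from miR-99b-5p by A1C, U11A, U16C and U21C, so base 16 was unlike in all 3. miR-125a-5p is 24 bases long against 22 for miR-125b-5p, and the pair shared their first 13 and last 5 bases. Each of the 5p arms of Mir99a, Mir99b, Mir100 and Mir125a occurred in 1 of the 2202 annotated hairpins. The miR-125b-5p arm occurred unaltered in 2, Mir125b-1 and Mir125b-2.

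The 3p arms separate the Mir125b copies, and those of Mir99a and Mir99b keep a common seed.
miR-99a-3p: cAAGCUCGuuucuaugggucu
miR-99b-3p: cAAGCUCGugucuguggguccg
miR-100-3p: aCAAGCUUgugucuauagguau
miR-125b-1-3p: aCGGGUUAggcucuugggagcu
miR-125b-2-3p: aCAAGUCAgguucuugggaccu
miR-125a-3p: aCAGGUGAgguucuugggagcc

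Each of these 3p arms occurred in 1 annotated hairpin, also with 1 mismatch allowed. Because reads with several alignments were left uncounted, a miR-125b-5p read that aligns to both hairpins adds to neither gene. The Mir125b-1 and Mir125b-2 hairpins were identical over at most 24 bases in a row. Their counts can hold 3p reads and reads that reach beyond the shared stretch, and are no measure of miR-125b-5p. With 1 mismatch allowed, miR-99a-5p and miR-100-5p each matched both the Mir99a and the Mir100 hairpin. These hairpins were identical over at most 16 bases in a row. Reads shorter than 16 bases that start at base 1 fit both arms equally.

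The hairpin of Mir125b-1, with both mature arms in capitals, shows where the copies can be told apart.
Mir125b-1: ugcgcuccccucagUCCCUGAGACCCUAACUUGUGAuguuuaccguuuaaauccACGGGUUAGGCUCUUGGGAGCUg
Its 5p arm lies in the shared stretch, and its 3p arm occurs in no other annotated hairpin.

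The genes sit in 3 clusters on the plus strand (mm10), each in the order miR-99/100 gene, let-7 gene, miR-125 gene. Mir99a (chr16:77598936-77599000), Mirlet7c-1 and Mir125b-2 (chr16:77646273-77646343) span 47408 bases and lie in introns of the noncoding gene Mir99ahg. Mir99a and Mirlet7c-1 also lie in an intron of Gm11146 on the opposite strand, and the end of Mir125b-2 overlaps an exon of C130023A14Rik. Mir99b (chr17:17830188-17830257), Mirlet7e and Mir125a (chr17:17830812-17830879) span only 692 bases within Spaca6, a gene of sperm-egg fusion. Mir99b and Mirlet7e are intronic there, whereas Mir125a overlaps an exon of at least 1 Spaca6 transcript. Mir100 (chr9:41531425-41531504), Mirlet7a-2 and Mir125b-1 (chr9:41581926-41582002) span 50578 bases in introns of the noncoding genes 3110039I08Rik and Gm49317. Mir100 also overlaps an exon of Gm48742 on the opposite strand, and Mir125b-1 an exon of Gm28119 on the same strand.

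Replicate 1 held 2023410 reads assigned to microRNA genes and replicate 2 held 3208821. Levels are counts per 1000000 assigned reads (CPM), so 1 count of replicate 1 is worth 0.494 CPM and 1 of replicate 2 is worth 0.312. Mir126a, an endothelial microRNA, took 17.8% and 4.79% of the counts, which moves every other share. All 3 marker microRNAs of neuroendocrine cells were present, with 24805 and 31924 CPM for Mir375. The others were lower in replicate 2, with 2333 and 2081 CPM for Mir7b and 869 and 774 CPM for Mir137. MicroRNAs typical of other tissues were present too, with Mir122 of liver at 26733 and 9284 CPM and Mir206 of muscle at 11177 and 4480.2 CPM. No messenger RNA was measured, so markers of the cortex were not checked.

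Mir99a and Mir99b had the highest levels of the 6 genes. Mir99a, which gives miR-99a, stood at 11915 CPM in replicate 1 and at 16204 in replicate 2, a mean of 14059 ± 3033 CPM (SD, n = 2). Mir99b stood at 12367 and 14723 CPM, a mean of 13545 ± 1666 CPM (SD, n = 2). Neither gene was the higher one in both libraries, and their ranges overlapped. Mir100 was lower, at 2452 and 3341 CPM and a mean of 2897 ± 628 CPM (SD, n = 2). Among all genes by mean CPM, Mir99a ranked 19, Mir99b 20 and Mir100 52.

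Mir125a, the miR-125 gene with a mature sequence of its own, stood at 7747 CPM in replicate 1 but at 4239 in replicate 2, a mean of 5993 ± 2480 CPM (SD, n = 2). It ranked 28 in replicate 1 and 46 in replicate 2. The counts left to Mir125b-1 came to 445 and 398 CPM, a mean of 421 ± 33.3 CPM (SD, n = 2). Those left to Mir125b-2 came to 199 and 267 CPM, a mean of 233 ± 48.2 CPM (SD, n = 2). All 6 genes reached 10 CPM in both libraries, as did 302 genes in all. No read fell on the opposite strand of any of the 6.

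**Figure D1:**
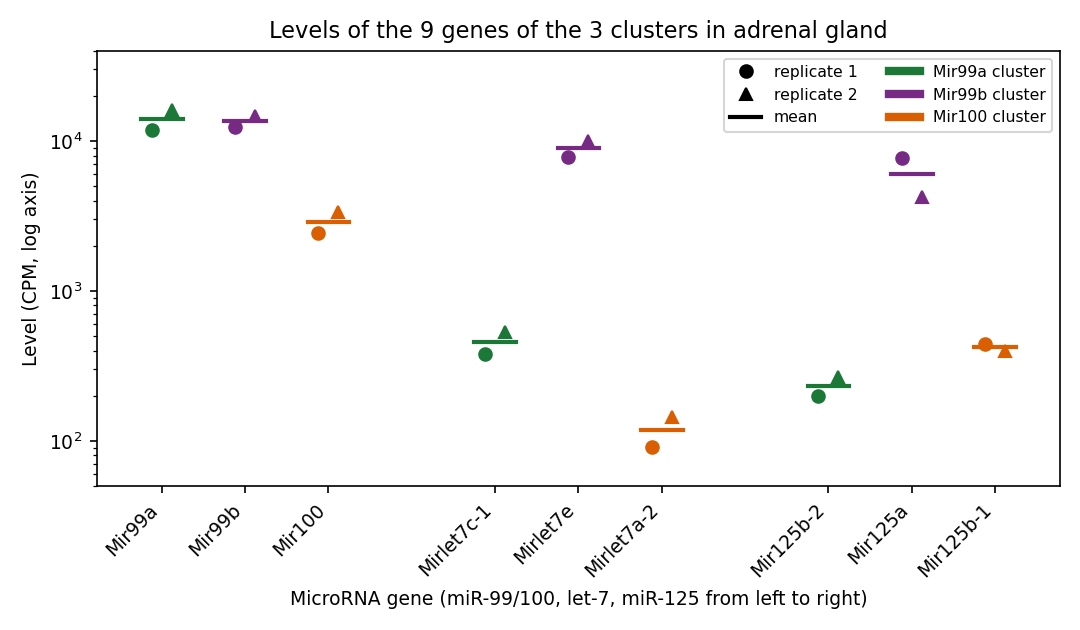
Levels in CPM (log axis) of the 9 genes of the 3 clusters, grouped as miR-99/100, let-7 and miR-125 genes, with circles for replicate 1, triangles for replicate 2, lines for the mean and colours for the cluster. Mir99a and Mir99b lie together at the top, and the let-7 and miR-125 genes of the Mir99b cluster stand far above their counterparts in the other clusters. Reads of those counterparts that align to a second hairpin too were not counted.

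In descending mean level the order was Mir99a, Mir99b, Mir125a, Mir100, Mir125b-1 and Mir125b-2. It was the same per base of mature sequence, which says little, since the 5p arms are all 22 or 24 bases long. Apart from Mir99a and Mir99b, no neighbours in that order overlapped over the 2 libraries. Mir99b exceeded Mir125a by a factor of 2.26 in mean CPM, Mir125a exceeded Mir100 by 2.07 and Mir100 exceeded Mir125b-1 by 6.88. With 2 libraries, these steps have no test beyond the ranges.

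Together the 6 genes took 3.51% of counts in replicate 1 (exact Clopper-Pearson 95% interval 3.49 to 3.54%) and 3.92% in replicate 2 (3.90 to 3.94%). Such intervals cover counting error only. The order of these 2 values depends on the total chosen, since with the counts of Mir126a left out of it the shares were 4.27% and 4.11%. The miR-99/100 genes took 2.67% and 3.43%, and the miR-125 genes 0.839% and 0.490%. The count ratio of the miR-99/100 to the miR-125 genes was thus 3.19 in replicate 1 and 6.99 in replicate 2, with the shared miR-125b-5p reads absent from its denominator. Within the miR-99/100 seed group, Mir99a held 44.6% and 47.3% of the counts, Mir99b 46.3% and 43.0%, and Mir100 9.17% and 9.75%.

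The miR-125 seed is also carried by genes outside the 3 clusters. RefSeq listed Mir351, Mir6367 and Mir6394 with the seed CCCUGAG.
miR-351-5p: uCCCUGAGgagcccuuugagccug
Mir351, an X-linked gene of the cluster of Mir322, stood at 6060 and 5864 CPM, a mean of 5962 ± 138 CPM (SD, n = 2). It was below Mir125a in replicate 1 and above it in replicate 2, with 0.782 and 1.38 Mir351 counts per Mir125a count. Of the counts of Mir351 and the miR-125 genes of the clusters together, Mir351 held 41.9% and 54.5%, and Mir125a 53.6% and 39.4%. That total lacks the shared miR-125b-5p reads, so these are no shares of all microRNA with this seed. Mir6367 and Mir6394 had no count, and a limit of 3 counts for a count of 0 corresponds to 1.48 CPM (replicate 1) and 0.935 CPM (replicate 2).

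The clusters differed in how their counts were divided. In the Mir99b cluster all 3 genes were abundant, with Mirlet7e at 7870.4 and 9957 CPM between Mir99b and Mir125a in mean level. The cluster summed to 27984 and 28919 CPM, a mean of 28452 ± 661 CPM (SD, n = 2). In the Mir99a cluster Mir99a alone held 95.4% and 95.3% of the counts, and the cluster summed to 12492 and 17005 CPM. In the Mir100 cluster Mir100 held 82.1% and 86.0%, and the sum was 2988 and 3883 CPM. Both Mir99a and Mir100 are next to let-7 and miR-125 genes whose 5p arm has a second copy elsewhere.

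The let-7 genes of the clusters also differ in copies. Without a mismatch, let-7e-5p matched no annotated hairpin outside the Mirlet7e locus, which on the opposite strand is annotated as Gm25927, a gene without a sense count.
let-7e-5p: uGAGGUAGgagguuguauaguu
let-7c-5p (Mirlet7c-1 and Mirlet7c-2): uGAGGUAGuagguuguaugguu
let-7a-5p (Mirlet7a-1 and Mirlet7a-2): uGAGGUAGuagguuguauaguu
Mirlet7c-1 and Mirlet7a-2 share their 5p arms with the genes in brackets. Mirlet7c-1 was counted at 379 and 534 CPM, and Mirlet7a-2 at 90.4 and 144 CPM. Mirlet7e had 20.8 and 18.7 times the counts of Mirlet7c-1, and 87.0 and 69.0 times those of Mirlet7a-2. These ratios set a gene with a 5p arm of its own against genes whose 5p reads fit another hairpin too, and are no ratios of let-7e to let-7c or let-7a. With 1 mismatch allowed, let-7e-5p also matched the hairpins of Mirlet7a-1 and Mirlet7a-2.

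**Figure D2:**
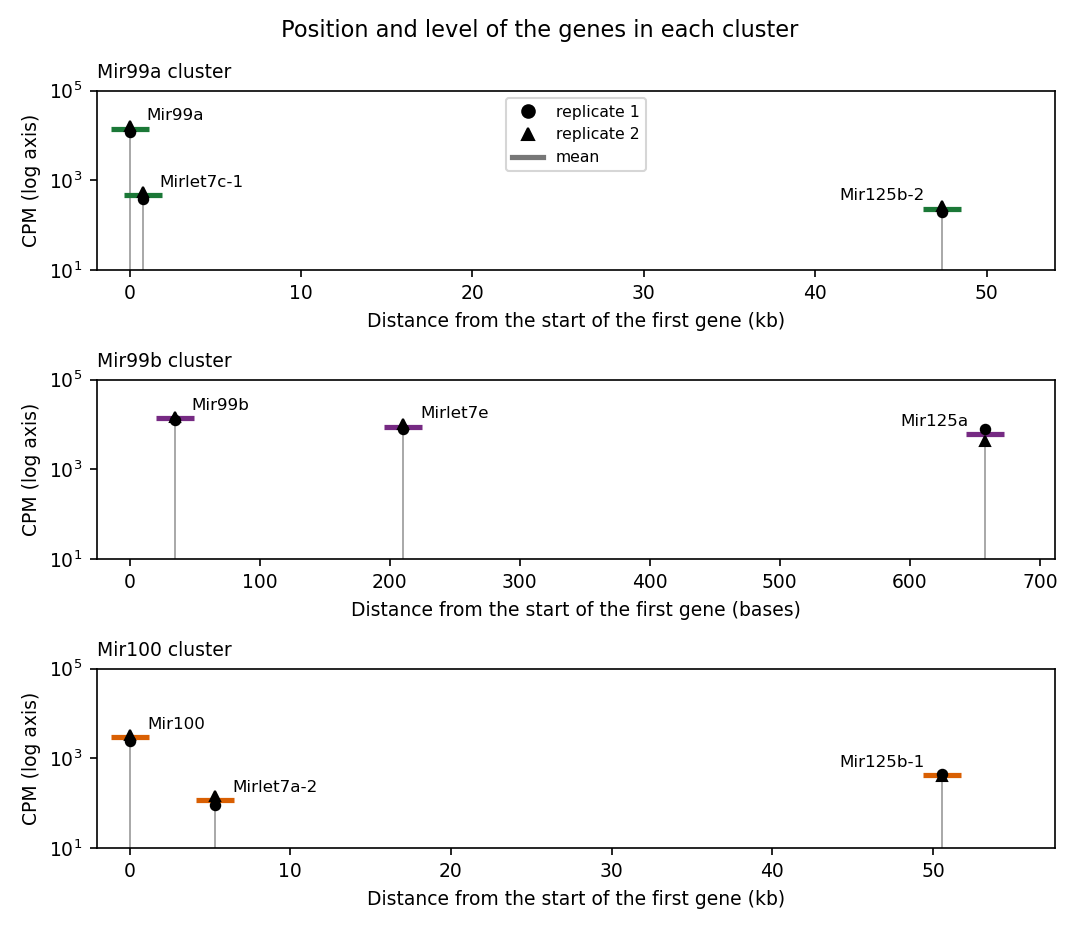
Position of each gene, as the distance of its middle from the start of the first gene (kb, or bases for the Mir99b cluster), against its level in CPM (log axis), with circles for replicate 1, triangles for replicate 2 and a horizontal mark for the mean. The Mir99b cluster packs 3 abundant genes into 692 bases, while in the other clusters the miR-125 gene lies over 45 kb downstream with few counts. Those genes are Mir125b-2 and Mir125b-1, and reads that align to both of their hairpins were not counted. A link of distance and level was not tested.

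Between the libraries, the miR-99/100 genes, the let-7 genes of the clusters and Mir125b-2 were higher in replicate 2, and Mir125a was lower. The libraries were compared by an exact conditional binomial test on counts with edgeR's TMM scaling and Benjamini-Hochberg adjustment over all 329 genes of at least 10 CPM in either library. It sets these 2 libraries against counting error and says nothing of a condition. At an adjusted p below 0.05, 5 of the 6 genes differed, beside a background of 74.2% of all genes tested. Of these, 4 were higher in replicate 2, where the background was 37.7%, and 1 was lower, where it was 36.5%. These counts out of 6 genes were not tested against the background and are no result about the family. In such tissue libraries, fewer cells of a type and less RNA per cell cannot be told apart.

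Mir125a had the largest difference of the 6, with a log2 ratio of replicate 2 over replicate 1 of -0.82 (exact 95% interval -0.85 to -0.79). Mir100 (0.49, 0.45 to 0.54) and Mir99a (0.49, 0.47 to 0.51) moved the other way by the same amount to 2 decimals. Mir125b-2 stood at 0.47 (0.30 to 0.65) and Mir99b at 0.30 (0.28 to 0.32). Mir125b-1 did not pass, at -0.11 (-0.24 to 0.01) with an adjusted p of 0.0949 by the exact binomial test. With unscaled totals it passed (-0.16, adjusted p 0.015 by the same exact test). Its sign turned under upper-quartile scaling (0.12), which moved the median of all genes to 0.23. Relative to that median it was again -0.11, and Mir125a was -0.81.

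The 3 let-7 genes were all higher in replicate 2, at 0.39 for Mirlet7e, 0.54 for Mirlet7c-1 and 0.72 for Mirlet7a-2. The median log2 ratio was 0.39 over the 6 genes and -0.01 over all genes tested. In size, the median difference was 0.48 for the 6 genes and 0.49 for all. No gene of the clusters differed by 1 log2 unit or more, as was so for 256 of the 329 genes. Under upper-quartile scaling the calls over all genes were 161 higher and 88 lower, against 124 and 120 with TMM.

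Marker microRNAs of other tissues differed between the libraries in both directions. Mir122 of liver and Mir206 of muscle, given above, were lower in replicate 2, like Mir125a, while the summed epithelial markers (4 of 4 genes at 10 CPM in both libraries) went from 588 to 2960 CPM. The muscle list, with only 2 of 4 genes at 10 CPM in both libraries, summed to 11312 and 4505 CPM, nearly all from Mir206. Its other members were Mir133b at 17.8 and 5.92 CPM, Mir208b at 38.5 and 8.10 CPM and Mir499 at 78.1 and 11.2 CPM. The leukocyte list, with 4 of 4 genes at 10 CPM in both, summed to 1488 and 2451 CPM. The sum for kidney or gut was lower in replicate 2 (408 and 213 CPM, 3 of 3 genes at 10 CPM in both), although its member Mir204 was higher (57.8 and 96.3 CPM). The red blood cell sum, over the 2 of 3 listed genes found by name, was 594 and 290 CPM. Mir486a was not found under that name, and Mir486, outside the sum, stood at 58.8 and 30.2 CPM. The brown fat sum was 99120 and 125342 CPM, nearly all from Mir378a (94651 and 120608 CPM), with Mir193b at 925 and 918 CPM. The smooth muscle sum was 28429 and 39314 CPM, mostly from Mir143 (27532 and 33734 CPM). Their part in the differences of the 6 genes was not tested.

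**Figure D3:**
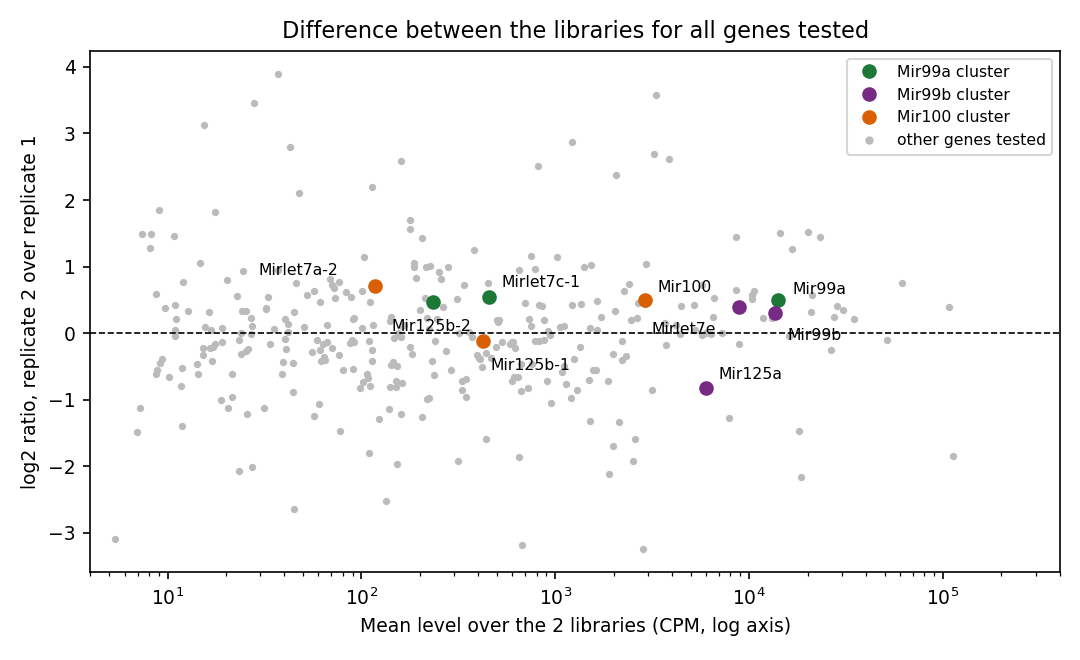
Log2 ratio of replicate 2 over replicate 1 against mean level in CPM (log axis) for the 329 genes tested, in grey, with the 9 cluster genes coloured by cluster. Mir125a lies at -0.82, Mir125b-1 at -0.11, and the other 7 between 0.30 and 0.72.

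Ratios of genes within a library do not depend on the library total or on Mir126a. In the Mir99a cluster, Mir99a had 31.5 and 30.4 counts per Mirlet7c-1 count, and 59.8 and 60.6 per Mir125b-2 count. The log2 ratio of Mir99a to Mirlet7c-1 differed between libraries by -0.05 (exact 95% interval -0.18 to 0.07), and that of Mir99a to Mir125b-2 by 0.02 (-0.16 to 0.19). That of Mirlet7c-1 to Mir125b-2 differed by 0.07 (-0.14 to 0.28). All 3 intervals hold 0, and the widest leaves room for a change of 0.28 log2 units.

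In the Mir99b cluster the members parted. Mir99b had 1.57 and 1.48 counts per Mirlet7e count, a change of -0.09 log2 units (-0.12 to -0.05). Against Mir125a, which lies past a gap of 367 bases after Mirlet7e, it had 1.60 counts in replicate 1 and 3.47 in replicate 2. This was a change of 1.12 log2 units (1.08 to 1.16), and Mirlet7e to Mir125a changed by 1.21 (1.17 to 1.25). Mir125a thus held 27.7% of the cluster in replicate 1 (27.3 to 28.1%) and 14.7% in replicate 2 (14.4 to 14.9%), while the cluster took 2.80% and 2.89% of all counts (3.40% and 3.04% without Mir126a).

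The miR-125 gene of the Mir100 cluster was also lower against its neighbours in replicate 2. Mir100 had 5.51 and 8.40 counts per Mir125b-1 count, a change of 0.61 log2 units (0.47 to 0.74). Mirlet7a-2 to Mir125b-1 changed by 0.84 (0.55 to 1.12). For Mir100 to Mirlet7a-2, with 27.1 and 23.2, the change was -0.23 and its interval held 0 (-0.49 to 0.03). Which arm of Mir125b-1 was read cannot be seen from counts per hairpin.

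Among paralogs, Mir99a and Mir100 kept the closest ratio. Mir99a had 4.86 counts per Mir100 count in replicate 1 and 4.85 in replicate 2, although the genes lie on chromosomes 16 and 9. The change was -0.003 log2 units, with an exact 95% interval of -0.06 to 0.05. Mir99b stood apart from both, since Mir99a to Mir99b changed by 0.19 (0.16 to 0.22) and Mir99b to Mir100 by -0.19 (-0.25 to -0.14). The 5p arms of Mir99a and Mir100 differ at base 16 alone, as printed above. A read too short to reach it that aligns to both hairpins adds to neither gene. Whether reads with a mismatch at that base were assigned to the other gene was not tested.

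The counts of the miR-125 paralogs kept no ratio. Reads of miR-125b-5p that fit both hairpins are in none of these counts. The values below are thus no ratios of miR-125a to miR-125b. Mir125a had 17.4 and 10.7 counts per Mir125b-1 count, a change of -0.71 (-0.84 to -0.58), and 38.9 and 15.9 per Mir125b-2 count, a change of -1.29 (-1.47 to -1.12). Mir125b-1 to Mir125b-2 went from 2.23 to 1.49, a change of -0.59 (-0.80 to -0.37). Over the 15 pairs compared, 5 intervals held 0 and 10 did not. In the 8 pairs without Mir125a or Mir125b-1 the change was at most 0.23 log2 units, and in the 7 pairs with either it was at least 0.59. The pairs share genes and are not independent. Mir125a and Mir125b-1 are the cluster genes with log2 ratios below 0 under TMM scaling (-0.82 and -0.11). This split therefore largely restates the ratios of single genes and is no test.

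**Figure D4:**
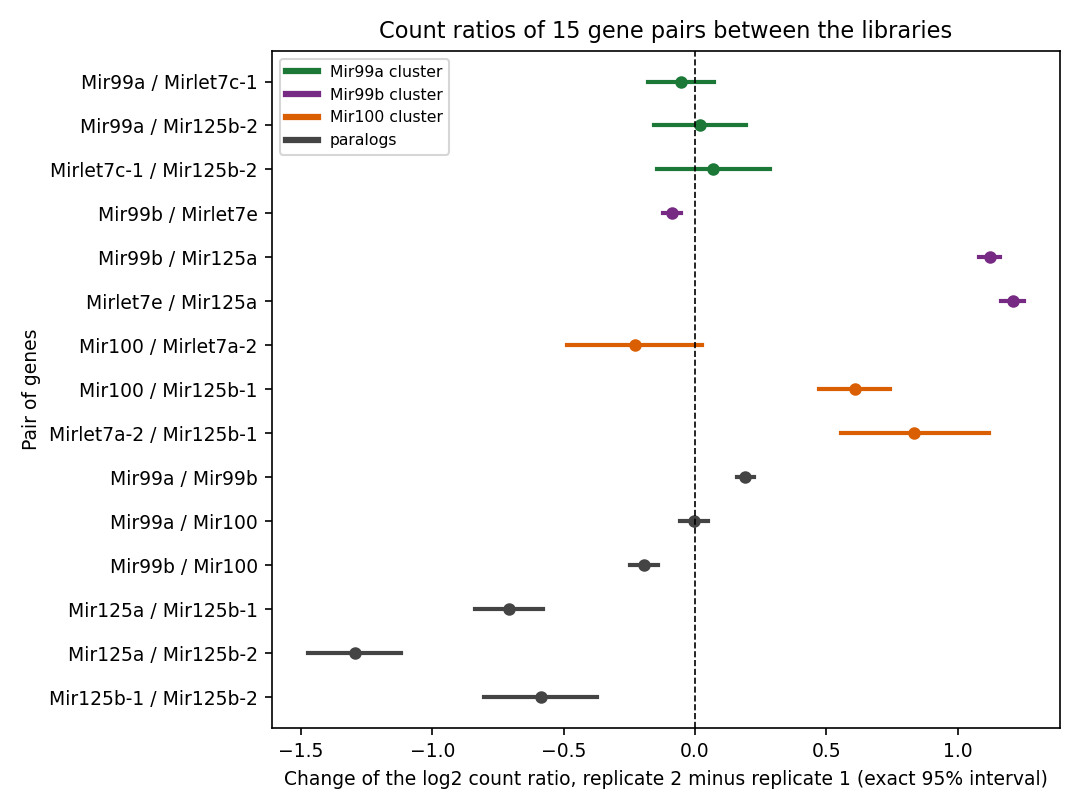
Change of the log2 count ratio of each of 15 gene pairs, replicate 2 minus replicate 1, with exact 95% intervals that cover counting error only; pairs within clusters are coloured and pairs of paralogs are dark grey. Pairs that include Mir125a or Mir125b-1 lie at least 0.59 from 0, and the others lie within 0.23 of it. That split largely restates the ratios of the single genes.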

How the data were processed

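MicroRNA reads of 2 adrenal libraries were analysed. The authors deposited raw read counts per microRNA hairpin gene for each library, with genome build mm10 and GENCODE M21 annotation, per the text deposited with the files. The aligner, like the counter, is not given in the sources used here. Counts of sense reads were used, and the column that holds them was recognised from its values. The 4 summary lines stayed out of totals. Reads that aligned to several places, 65.2 and 72.6 for each 100 assigned, are in those lines and in no gene.

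All 2202 identifiers matched M21. CPM used all counts assigned to genes. Library sizes were TMM-scaled (edgeR 4.0.16), and the exact binomial test (SciPy 1.17.1) was checked on simulated counts. These held counting error only and used unscaled totals, so the check does not cover spread between libraries. It called 165 of 200 changed genes and 1 of 129 unchanged genes. Log2 ratios of single genes carry a pseudocount of 1 CPM, and their intervals carry none. Count ratios of 15 pairs have exact conditional intervals from R 4.3.3. edgeR's quasi-likelihood test needs replicated groups, and there is 1 group. DESeq2 1.42.0 gave size factors for an alternative. Motifs were not searched, and matches were counted in annotated hairpins on both strands, since no genome sequence was used here. RefSeq hairpins of Mir99b and Mir125b-2 were not used here.

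Named genes were the 6 genes, the let-7 genes of their clusters and the copies of these, genes with the same seed, and the 2 genes nearest to each of the 6 in log2(CPM + 1). Members, lists and tests were chosen with earlier results of these data known. Marker lists also covered kidney, red blood cells, brown fat and smooth muscle.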

Additional observations from a re-analysis of the deposited data

How the results depend on the processing

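Of the 6 genes and the 3 let-7 genes, all but Mir125b-1 kept direction and call under every alternative in which they had a value. Other pseudocounts could not alter a call, as the test carries none. Changing which genes were tested left the ratios as they were. Mir125a ranged from -0.87 to -0.59 and Mir99a from 0.44 to 0.73. Mir125b-1 passed with total counts (-0.16, adjusted p 0.015 by the exact binomial test) and irrespective of strand (-0.13), which makes 2 of the 6 genes lower in both, and turned to 0.12 under upper-quartile scaling. Its adjusted p ranged from 0.015 to 0.238 over 8 alternatives.

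Summed CPM moved with the total chosen. Without Mir126a in the total, the 6 genes came to 41931 CPM and the Mir99b cluster to 32204 CPM. With reads of several alignments in the total, the 6 genes came to 21980 CPM and the Mir99a, Mir99b and Mir100 clusters to 8707, 16848 and 2029 CPM. Irrespective of strand they came to 50076, 19750, 26486 and 4607 CPM. The counts of the 6 genes were the same in that setting, but the total fell to 1401836 and 2541746 reads. Mirlet7e has no count in it, as its reads overlap Gm25927. Without replicate 1 or 2, the mean log2 ratio of Mir99a to Mir99b ranged from -0.0538 to 0.138. Matches to a genome were not run. Depth limits Mirlet7a-2 most, with 183 and 463 counts.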

Other observations

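Mirlet7a-1 and Mirlet7c-2, which carry the 5p arms of Mirlet7a-2 and Mirlet7c-1 outside the 3 clusters, were higher in replicate 2 as well. Mirlet7a-1 stood at 123 and 249 CPM (log2 ratio 1.06) and Mirlet7c-2 at 601 and 796 CPM (log2 ratio 0.45). Each exceeded the cluster gene with the same 5p arm in both libraries. The other let-7 genes tested were named after their values were seen. Mirlet7b (log2 ratio 0.75), Mirlet7d (0.57), Mirlet7f-1 (0.54), Mirlet7f-2 (0.48) and Mirlet7i (0.22) were also higher in replicate 2. Among them only Mirlet7g was lower, at 54169 CPM in replicate 1 and 48930.4 in replicate 2.

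By distance in log2(CPM + 1) over the 2 libraries among the 329 genes, Mir99b lay closest to Mir30d (0.08) and next to Mir99a (0.15). Mir99a had Mir99b and Mir30d (0.23) as its nearest genes. Mir100 lay closest to Mir320 (0.04) and Mir382 (0.17), Mir125b-1 to Mir130b (0.15) and Mir667 (0.21), and Mir125b-2 to Mir30c-2 (0.04) and Mir350 (0.19). Mir125a had no neighbour nearer than Mir206 (0.53), followed by Mir130a (0.56). With 2 libraries, such a distance describes level and direction only.

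The hairpins of the Mir99b cluster held more G and C than those of the other clusters, with 67.1% in Mir99b, 62.4% in Mirlet7e and 60.3% in Mir125a. The other 6 hairpins ranged from 45.8% in Mirlet7a-2 to 53.2% in Mir125b-1.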
